A study of Mus musculus with 6 samples.

Results

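Potassium channels are the largest family of ion channels in the mouse genome. Tetramers or dimers of pore-forming subunits let potassium leave the cell, set the resting potential, end action potentials and pace firing, and cytosolic or membrane-bound accessory subunits tune their gating and traffic. In neurons and neuroblastoma cells they are known for holding the membrane negative as neurites form. The expression of these genes was examined in N2a (Neuro2A) cells, a mouse neuroblastoma line, after knockdown of circRtn4, a circular RNA made from exons of Rtn4. Members were taken by name and biotype, as every protein-coding gene of the deposited table whose symbol starts with Kcn. There were 94 of them among the 54532 genes listed, namely 40 voltage-gated, 8 calcium-activated (with the related sodium-activated and sperm Slo channels), 15 inward rectifier, 14 K2P (two-pore domain) and 17 accessory genes.

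RNA was sequenced from 3 libraries of N2a cells transfected with a control siRNA (si-NC) and 3 transfected with si-circRtn4, which covers the back-splice junction of the circle. All cells are of 1 line, labelled with the strain C57BL/6, and the labels give a growth medium and no other treatment. The study's methods say that transfected N2a cells were later moved to differentiation medium before harvest, without naming the sequenced libraries. Values were FPKM (fragments scaled to gene length and library size), so that levels can be compared between genes per length. Nothing in the labels says that the libraries of a group came from separate cultures, and p-values may measure technical spread only.

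Among the potassium channel genes averaging 1 FPKM or more, knockdown of circRtn4 went with a called fall of 1, Kcnn3. This gene encodes the small conductance calcium-activated channel SK3. It went from 5.60 ± 0.137 to 1.67 ± 0.204 FPKM (SD, n = 3 each), to 29.8% of the si-NC level. Of the 20 members averaging 1 FPKM or more across the 6 libraries, 1 was lower and 0 were higher at an adjusted p under 0.05 (limma on log2(FPKM + 1), Benjamini-Hochberg adjustment over all 12749 genes tested), and 3 had an unadjusted p under 0.05. Among all genes tested 9.19% were called, 4.82% as lower and 4.36% as higher, and 25.9% had an unadjusted p under 0.05. The median log2 fold change of the 20 members was 0.0087, against 0.0020 for all genes tested. The other 74 members were below the level for this test.

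Some RNA and cell features moved with the knockdown and stand beside all results here. The libraries held 14100818 to 14748929 (si-NC) and 13541198 to 15122063 (si-circRtn4) reads on genes, recovered from the FPKM steps. The host gene Rtn4 was at 61.0, 66.8 and 69.8 FPKM in si-NC and 50.1, 56.7 and 62.7 FPKM in si-circRtn4. Its groups overlapped (adjusted p = 0.216 from limma). The FPKM of Rtn4 does not read circRtn4 alone, and whether it counts any circular RNA is not known here. Of 8 neuroblast or neuron markers, Phox2a was called as lower (from 206 to 218 down to 129 to 166 FPKM), and Nefm was at or near 0. The summed level of the 8 markers was 1047 to 1174 FPKM in si-NC and 752 to 1065 in si-circRtn4. Of 17 markers of astrocytes, oligodendrocytes, macrophages, endothelial cells and fibroblasts, only Mbp had a mean over 1 FPKM. Mbp alone was therefore tested on FPKM, and it was not called. Aqp4 was at 0 in all libraries. Among those too low for the test, the astrocyte marker Gfap was lower in si-circRtn4 and the fibroblast marker Dcn higher, each without overlap. The fibroblast markers summed to 0.177 to 0.476 FPKM in si-NC and 0.480 to 0.786 in si-circRtn4. Mitochondrial protein-coding genes took 2.03% to 2.26% of reads in si-NC and 1.50% to 1.87% in si-circRtn4. The non-coding gene Gm23935 took 20.1% to 20.7% of the summed FPKM in si-NC and 13.5% to 18.8% in si-circRtn4, so that rescaling to equal sums moves all other genes. The part of these features in the results was not tested, and fewer cells of a type cannot be told apart from less RNA per cell.

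**Figure D1:**
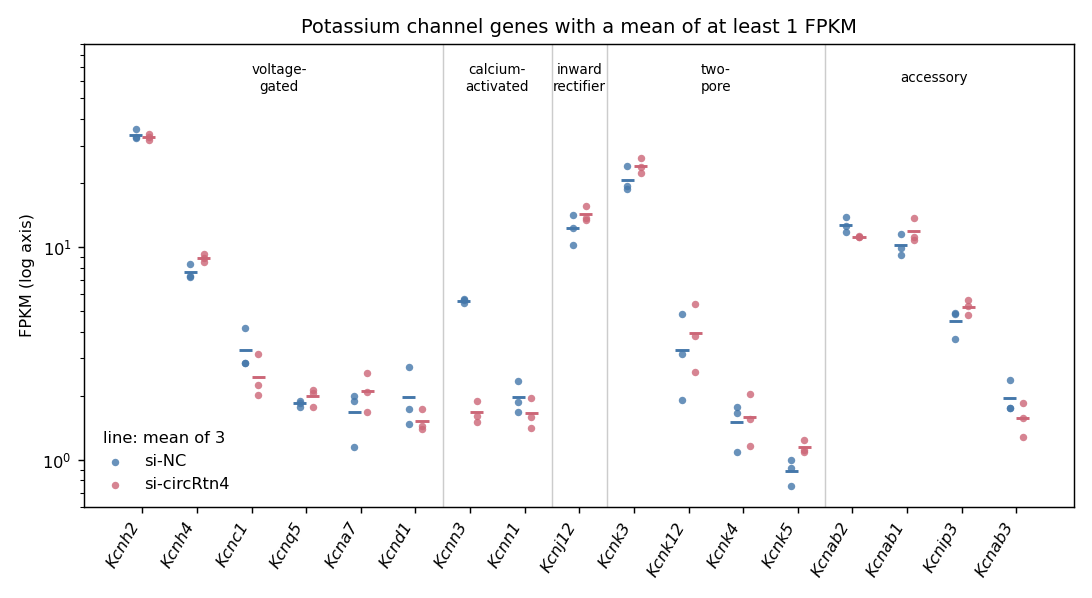
FPKM (log axis) of 17 of the 20 potassium channel genes averaging 1 FPKM or more, by class and then by level, with 1 point per library and a line at the mean of each group. Kcnn3 is the gene whose groups stand farthest apart, with si-NC at 5.45 to 5.72 and si-circRtn4 at 1.50 to 1.90 FPKM.

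The study asks whether circRtn4 holds back the microRNA miR-24-3p, so the sites of this microRNA and of the siRNA itself in the members' 3′ UTRs are shown first. A microRNA or siRNA guide pairs with its targets mainly through the seed, bases 2 to 8, printed here in capitals. The mature microRNA (RefSeq, GRCm38.p6), the siRNA as the study lists it and its guide, taken as the reverse complement, read 5′ to 3′ as follows, and the capitals in the listed strand mark the match to the guide's seed.
mmu-miR-24-3p: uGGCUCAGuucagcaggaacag
si-circRtn4 as listed: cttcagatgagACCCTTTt
si-circRtn4 guide: aAAAGGGTctcatctgaag

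For every protein-coding gene the longest 3′ UTR that GENCODE M21 (GRCm38) annotates was searched on the transcript strand for CTGAGCC, the site of miR-24-3p, and ACCCTTT, the site of the guide. A site for miR-24-3p was present in 20 of 93 members with such a UTR (21.5%), against 16.3% of all protein-coding genes with one. Of the 19 tested members that had a UTR, 5 held it (26.3%), against 19.6% of all genes tested. The guide site was in 19 of 93 members (20.4%), against 2299 of 20937 such genes in all, and in 3 of the 19 tested (15.8%), against 12.5% of all genes tested. The UTRs of the members were also longer, with a median of 1756 bases in the 93 members and 967 in all genes, and of 1777 in the tested members and 1170 in all genes tested. A site is a run of letters and no evidence of binding.

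The annotated 3′ UTR of Kcnn3, the 1 tested member called on FPKM, is 380 bases long and held neither site. Its coding transcript, Kcnn3-201, held 1 site of miR-24-3p in the coding part of exon 1, whereas Kcnn3-202, annotated as a retained intron of 8314 bases, held none of either kind. Sites in 3′ UTRs were found both in members that were called from recovered reads and in members that were not called. Kcns2, a gene of low level that was called as lower from reads, held 1 site of each kind. Kcng4, called as higher from reads, held 1 of miR-24-3p. Kcnh3, also called as lower from reads, held neither. Among members not called, Kcnn1, the SK1 gene, held 2 sites of miR-24-3p and 1 of the guide. Kcnk3 held the single miR-24-3p site among tested members that is followed by an A, the 8-base form. Kcnc1, a voltage-gated channel gene, held 1 of each. The site of Kcng4 is not printed. The sequences below give the Kcnn3 coding site, the 3′ UTR sites of Kcns2, and those of the tested members with the most sites or the 8-base form. The 7-base match is in capitals.
Kcnn3 coding site of miR-24-3p, chr3:89521073-89521079, plus strand: cttatcgaggCTGAGCCtgagggccaa
Kcns2 site of miR-24-3p, chr15:34842953-34842959, plus strand: gtgtagaatgCTGAGCCtatgcctagc
Kcns2 site of the guide, chr15:34841316-34841322, plus strand: acaacaaacaACCCTTTcaaccattaa
Kcnn1 first site of miR-24-3p, chr8:70844205-70844211, minus strand: cttgggtgaaCTGAGCCgactggactg
Kcnn1 second site of miR-24-3p, chr8:70843346-70843352, minus strand: cctgccccttCTGAGCCcagtattagc
Kcnn1 site of the guide, chr8:70842432-70842438, minus strand: acacagagagACCCTTTctcaagactt
Kcnk3 site of miR-24-3p, chr5:30624132-30624138, plus strand: aagccccagcCTGAGCCactgccaggg

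Calcium-activated channels open when calcium inside the cell rises. The small conductance group (SK1 to SK3, genes Kcnn1 to Kcnn3) senses calcium inside the cell, does not depend on voltage and carries part of the hyperpolarization after an action potential. Kcnn3 (ENSMUSG00000000794) occupies chr3:89520164-89675132 on the plus strand and overlaps no other detected gene of the table. Its si-NC libraries read 5.72, 5.45 and 5.63 FPKM, and its si-circRtn4 libraries 1.61, 1.50 and 1.90 FPKM. The groups lay far apart, and the lowest si-NC value was above the highest si-circRtn4 value (p = 0.1 in an exact permutation test, two-sided, and no lower p can come from 3 libraries against 3). The log2 fold change was -1.31 on the log2(FPKM + 1) scale (standard error 0.094, 95% interval -1.53 to -1.09, adjusted p = 0.00111 from limma). Behind these values stood 240 to 903 recovered reads per library. Among 10783 protein-coding genes tested, 26 fell further on this scale, which placed Kcnn3 at rank 27. Reads of the coding and the retained intron transcript share 1 FPKM value and cannot be told apart.

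The other SK genes were lower in level and were not called. Kcnn1 was at 2.35, 1.87 and 1.68 FPKM in si-NC and 1.59, 1.41 and 1.95 FPKM in si-circRtn4, with overlapping groups, and changed by -0.16 ± 0.14 on the log2 scale (standard error, limma adjusted p = 0.514). Its 95% interval of -0.48 to 0.16 did not reach that of Kcnn3. Kcnn2, the SK2 gene, was below the level for the test, at 0.724, 0.872 and 0.859 FPKM in si-NC and 0.710, 0.553 and 0.827 FPKM in si-circRtn4, and its groups overlapped too. Kcnn4, the intermediate conductance channel, had at most 1 read in any library. Kcnn3 made up 64.9% to 68.8% of the summed FPKM of the 4 genes in si-NC and 40.6% to 43.1% in si-circRtn4, and the sum went from 8.19 to 8.82 down to 3.48 to 4.67 FPKM. In si-circRtn4 the levels of Kcnn3 and Kcnn1 overlapped, at 1.50 to 1.90 and 1.41 to 1.95 FPKM.

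**Figure D2:**
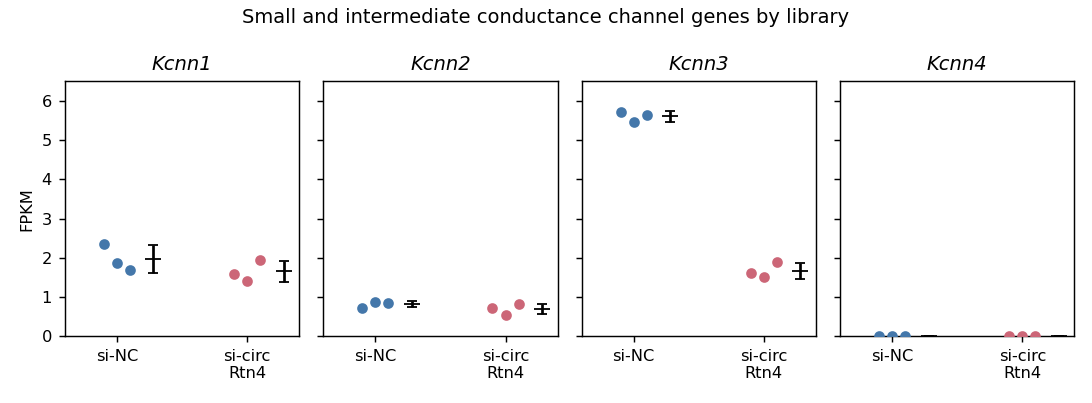
FPKM by library of the small and intermediate conductance calcium-activated channel genes, with the mean and SD of each group (n = 3) beside the points. The si-NC values of Kcnn3 lie at 5.45 to 5.72 and its si-circRtn4 values at 1.50 to 1.90 FPKM, whereas the groups of Kcnn1 and Kcnn2 overlap.

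Of the remaining calcium-activated class, Kcnu1, which encodes the sperm channel Slo3, was at 1.05, 0.984 and 0.612 FPKM in si-NC and 0.978, 0.808 and 0.699 FPKM in si-circRtn4. Kcnma1, the pore of the large conductance BK channel, had means of 0.585 ± 0.0817 and 0.723 ± 0.185 FPKM (SD, n = 3 each). Neither reached the level for the test, and the groups of both overlapped. The sodium-activated channel gene Kcnt1 had 3, 3 and 1 reads in si-NC and 19, 11 and 21 in si-circRtn4, with means of 0.0168 ± 0.00804 and 0.122 ± 0.0419 FPKM (SD, n = 3 each). Its groups did not overlap, with si-circRtn4 higher, but it was too low for either test. Kcnt2, its relative, had at most 2 reads in any library.

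Voltage-gated channels open on depolarization and repolarize the membrane. Of the 40 genes, 9 were tested and none was called. Their highest member, and the highest of all 94, was Kcnh2 (hERG, a channel of slow deactivation). Kcnh2 was at 35.9, 32.5 and 32.9 FPKM in si-NC and 34.2, 31.9 and 32.9 FPKM in si-circRtn4, so that the groups overlapped. Its log2 fold change of -0.03 (standard error 0.073) had a 95% interval of -0.20 to 0.14, the narrowest of the members, and its sign changed with the scaling. Kcnh4, of the ELK group, was at 8.36, 7.30 and 7.23 FPKM in si-NC and 8.91, 8.51 and 9.27 FPKM in si-circRtn4. Every si-circRtn4 value was above every si-NC value, but its log2 fold change of 0.20 (standard error 0.081) missed the threshold (unadjusted p = 0.0411, adjusted p = 0.174 from limma). Other tested members of this class included Kcnc1, a channel of fast-firing neurons, Kcnq5, Kcna7 and Kcnd1. The log2 fold changes of the class lay between -0.31 (Kcnc1) and 0.22 (Kcna7). Of the 31 voltage-gated genes not tested, 16 were listed at 0 in every library, 9 were above 0 with a mean under 0.1 FPKM and 6 had a mean of 0.1 to under 1 FPKM.

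Inward rectifiers pass potassium more easily into than out of the cell and hold the resting potential. A single gene of the 15, Kcnj12 (Kir2.2, a strong rectifier), reached the level for the test. It was at 14.2, 12.3 and 10.2 FPKM in si-NC and 15.7, 13.7 and 13.4 FPKM in si-circRtn4. The groups overlapped, and the log2 change was 0.21 ± 0.12 (standard error, 95% interval -0.07 to 0.49, limma adjusted p = 0.320). Kcnj14 (Kir2.4) was at 1.17, 1.05 and 0.736 FPKM in si-NC and at 0.569, 0.497 and 0.152 FPKM in si-circRtn4. Its groups did not overlap, but its mean of 0.695 FPKM kept it out of the test on FPKM. From recovered reads Kcnj14 was tested and not called (log2 fold change -1.41, standard error 0.44, adjusted p = 0.0553 from limma-voom). Kcnj9 (GIRK3, a subunit of G protein-gated channels) had overlapping groups, with means of 0.648 ± 0.218 and 0.516 ± 0.180 FPKM (SD, n = 3 each). Of the class, 6 genes were listed at 0 in every library, among them Kcnj11, the pore of ATP-sensitive channels.

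K2P channels have a pair of pore domains in each subunit and carry the background leak of potassium. Their 4 tested genes all had a positive log2 fold change, from 0.04 to 0.22, and none was called. Kcnk3 (TASK-1, an acid-sensitive leak channel) was the second highest of all members. It was at 24.1, 19.4 and 18.8 FPKM in si-NC and 26.2, 22.3 and 23.8 FPKM in si-circRtn4, with overlapping groups and a log2 change of 0.21 ± 0.11 (standard error, limma adjusted p = 0.282). Kcnk12 (THIK-2) varied most among the libraries, at 4.83, 3.15 and 1.92 FPKM in si-NC and 5.41, 3.82 and 2.59 FPKM in si-circRtn4. The spread within each group was larger than the difference between them, although each si-circRtn4 library lay above the si-NC library of its own number. Its log2 fold change of 0.22 had a standard error of 0.28 without regard to number (adjusted p = 0.688 from limma). With replicate number as a block the standard error was 0.080, and the gene was still not called (adjusted p = 0.115 from limma). Kcnk4 (TRAAK, a mechanosensitive leak channel) had means of 1.51 ± 0.371 and 1.59 ± 0.443 FPKM (SD, n = 3 each). The signs of Kcnk12 and Kcnk4 changed when 1 library was left out. Kcnk5, the tested member nearest to the limit, was at 0.756 to 0.998 FPKM in si-NC and 1.09 to 1.25 FPKM in si-circRtn4. It was the single tested member with a group mean under 1 FPKM, and it passed the filter through the group where it was higher.

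Accessory subunits do not form the pore. Of the 17 genes, 4 were tested and none was called. Kcnab1 and Kcnab2 encode the cytosolic beta subunits of Kv1 channels. Kcnab2 was at 13.8, 12.6 and 11.8 FPKM in si-NC and at 11.2, 11.2 and 11.2 FPKM in si-circRtn4, a log2 change of -0.17 ± 0.077 (standard error, limma adjusted p = 0.216) between groups that did not overlap. Kcnab1 was at 9.16, 9.90 and 11.5 FPKM in si-NC and 10.8, 11.2 and 13.6 FPKM in si-circRtn4, with overlapping groups and a log2 fold change of 0.20 (standard error 0.11). Kcnip3, a calcium-binding protein that joins Kv4 channels and also acts as a transcriptional repressor, had overlapping groups with means of 4.49 ± 0.671 and 5.21 ± 0.421 FPKM (SD, n = 3 each). Although Kcnab1 and Kcnab2 were among the 6 highest members, the Kv1 pore genes they bind were near 0, save Kcna7 at 1.14 to 2.55 FPKM and Kcna4 with a mean of 0.152 FPKM.

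**Figure D3:**
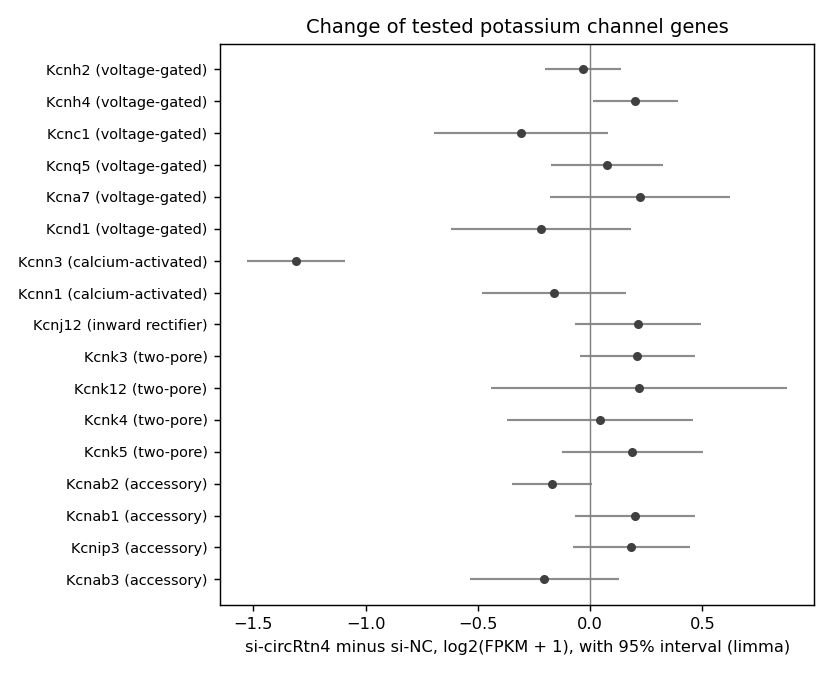
Log2 fold change (si-circRtn4 minus si-NC, log2(FPKM + 1) scale) of 17 of the 20 tested potassium channel genes with 95% intervals from limma. The interval of Kcnn3, -1.53 to -1.09, lies below those of the other 16 genes shown, whose lowest bound is -0.70 and highest 0.88.

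Across the 19 tested members that were not called, the log2 fold change lay between -0.31 and 0.22 and the adjusted p between 0.157 and 0.911. Their 95% intervals reached from -0.70 to 0.88 in all and were within 0.5 of 0 on either side for 12 of them. The lower bound of each of the 19 was above the upper bound of Kcnn3. The log2(FPKM + 1) scale leaves the lowest members, such as Kcnk5 with a si-NC mean of 0.890 FPKM, little room to fall. For those the separation is partly set by the scale. In 10 of the 20 tested members the log2 fold change was above 0 and in 10 below it. The groups did not overlap in 6 of them (30%), 4 lower (Kcnn3 and Kcnab2 among them) and 2 higher (Kcnh4 and Kcnk5), against 31.7% of all genes tested. The summed FPKM of all 94 members was 161 ± 12.1 in si-NC and 160 ± 7.02 in si-circRtn4 (SD, n = 3 each), and Kcnh2 and Kcnk3 held the largest parts of it. By class the sum was lower in si-circRtn4 without overlap only for calcium-activated channels, at 9.88 ± 0.539 and 5.70 ± 0.752 FPKM (SD, n = 3 each). Without Kcnn3 the sum of this class was 4.77, 4.25 and 3.83 FPKM in si-NC and 4.29, 3.37 and 4.44 FPKM in si-circRtn4, and the groups overlapped.

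**Figure D4:**
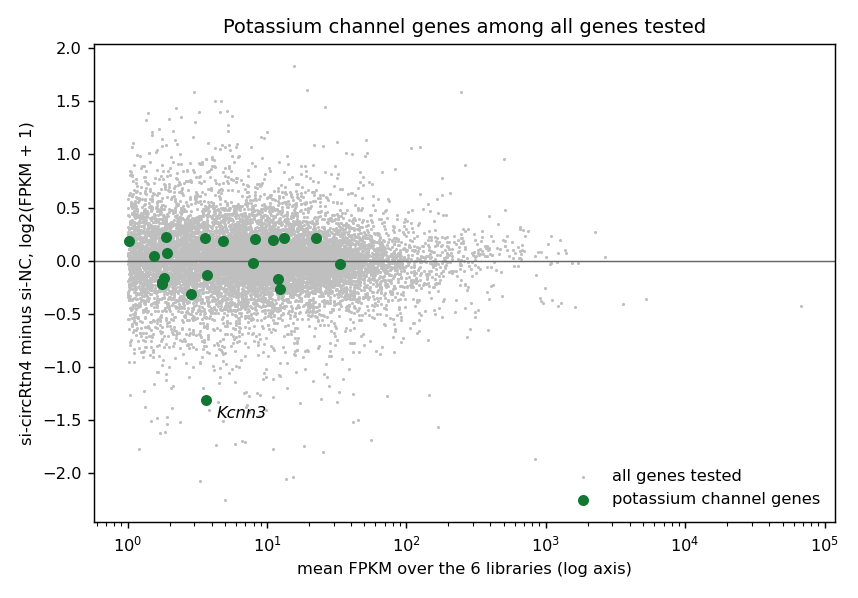
Log2 fold change (log2(FPKM + 1) scale) against mean FPKM over the 6 libraries (log axis) for all 12749 genes tested, in grey, and the 20 potassium channel genes, in green. Kcnn3 lies at -1.31, and the other 19 members lie between -0.31 and 0.22.

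A second set of genes was listed for their role beside the channels. The list was made with earlier results of these data known, so its share of calls is descriptive only. It held 32 partners (auxiliary subunits, clustering, trafficking and calcium-sensing proteins and the repressor Rest) and 21 genes of potassium transport. Of the 19 partners tested, 2 were lower and 0 were higher at an adjusted p under 0.05, and of the 14 transport genes 2 were lower and 2 higher, which is 18.2% of the 33 against 9.19% of all genes tested. With rescaling to equal FPKM sums (TPM), 3 of them were higher and 1 lower. The median log2 fold change of the 33 was -0.08. Adam23, a membrane protein that binds LGI1 near Kv1 channels, fell the most, from 6.12, 5.53 and 6.15 FPKM in si-NC to 3.14, 2.71 and 3.16 FPKM in si-circRtn4 (log2 change -0.79 ± 0.089, limma adjusted p = 0.00352). Snx27, a sorting nexin that binds GIRK channels, went from 16.1 ± 0.818 to 12.1 ± 1.03 FPKM (SD, n = 3 each, adjusted p = 0.0323 from limma). Slc12a4, a potassium-chloride cotransporter, rose from 9.12 ± 0.256 to 12.3 ± 1.42 FPKM (SD, n = 3 each, adjusted p = 0.0421 from limma). Tmem38b, a potassium channel of the endoplasmic reticulum, rose from 1.50 ± 0.124 to 2.43 ± 0.231 FPKM (SD, n = 3 each, adjusted p = 0.0447 from limma). Adam23 was called without any 1 of the 6 libraries, Slc12a4 was also called without si-circRtn4 replicate 3, and the other 4 genes lost the call without each of the 6. With replicate number as a block, 3 were higher and 7 lower, with Ank3 (adjusted p = 0.0492), Atp1b2 (0.0492) and Slc12a5 (0.0111) among those added.

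Members under 1 FPKM were read from whole reads recovered from the FPKM values, with limma-voom on genes of at least 10 reads on average, a fit added after the data had been seen. Of the 37 members in it, 2 passed an adjusted p of 0.05 as higher and 3 as lower (13.5%), against 12.6% of all genes in it, 7.05% higher and 5.59% lower. Kcnn3 was again lower (log2 fold change -1.73, standard error 0.11, adjusted p = 5.97e-06 from limma-voom), and the other 4 were voltage-gated genes with a mean under 0.5 FPKM, of which 3 are described here, named after their values were seen. Kcns2, a silent subunit that joins other voltage-gated subunits, had 35, 30 and 27 reads in si-NC and 10, 5 and 9 in si-circRtn4 (log2 fold change -1.94, standard error 0.38, adjusted p = 0.00585 from limma-voom). Kcnh3, an ELK channel, had 60, 30 and 31 reads in si-NC and 14, 11 and 19 in si-circRtn4 (-1.40, standard error 0.38, adjusted p = 0.0293 from limma-voom). It overlaps Mcrs1 in the genome, and without known strand their reads may mix. Kcng4, another silent subunit, had 5, 3 and 0 reads in si-NC and 20, 15 and 21 in si-circRtn4 (3.15, standard error 0.65, adjusted p = 0.00835 from limma-voom). Kcng4 reached 10 reads on average only through the si-circRtn4 libraries, where it was high, and Kcns2 only through the si-NC libraries. For these 3 genes, picked by their calls, the groups did not overlap, but a few reads decide each value. In this fit the groups of 15 of the 37 members did not overlap (40.5%). The share over all genes of this fit was not computed, and it was 31.7% of the 12749 genes tested on FPKM.

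**Figure D5:**
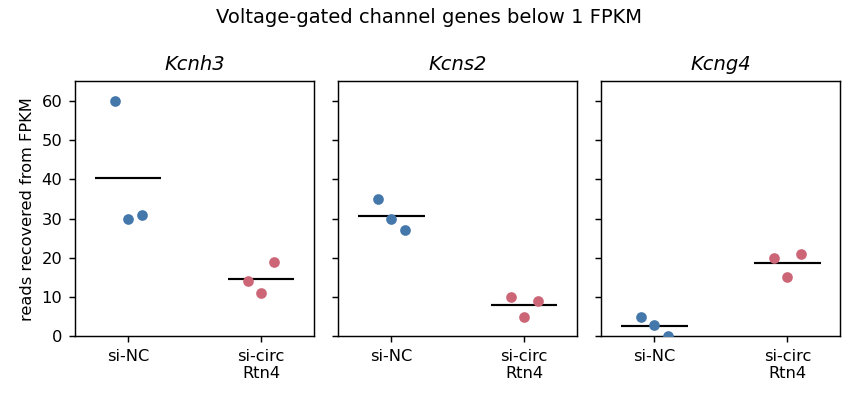
Reads recovered from FPKM in each library for 3 voltage-gated genes below 1 FPKM that passed limma-voom, with a line at the mean of each group. Kcnh3 and Kcns2 had 27 to 60 reads in si-NC and 5 to 19 in si-circRtn4, and Kcng4 had 0 to 5 in si-NC and 15 to 21 in si-circRtn4.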

How the data were processed

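The authors deposited FPKM values per gene for 6 libraries of N2a cells, 3 for si-NC and 3 for si-circRtn4, assigned by their titles. The submitters' processing notes list Bowtie 0.12.2 and the builds mm8 and mm9 with no role, but 98.1% of the 54532 genes have the coordinates of GENCODE M21 (GRCm38), as have 90 of the 94 members. The counting tool and its use of strand are not given in the sources used here. The table holds 6 columns of other samples, left out here. FPKM times the deposited gene length (a column of the file, in bases) gave whole multiples of 1 step for 100% of values above 0 (tolerance 0.01 reads), from which reads were recovered.

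The 12749 genes averaging 1 FPKM or more entered limma 3.58.1 (R 4.3.3; linear model and eBayes with trend) on the log2(FPKM + 1) scale. P-values were adjusted by Benjamini-Hochberg, and calls needed an adjusted value below 0.05. This scale understates the change of low genes. Exact permutation tests were two-sided. Deviations from the group means correlated at 0.190 to 0.331 for equal replicate numbers and at most 0.0091 for others. Such deviations cancel within a group, so the low values for unequal numbers follow from the positive ones. They are no separate sign of pairing, and whether the numbers mark pairs is not known here. The labels do not say what a number marks, and the block was kept as an alternative.

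Members and lists were chosen with earlier results of these data known. The genes named were tested members with an unadjusted p under 0.05, the 3 members of highest mean FPKM in each of the 5 classes, and partner or transport genes called, at most 8. Some genes that this rule names are not reported here. Other members are named where a count or a class is spelled out. A further part of the rule, calls by a count test on recovered reads, was not applied, as that test was not run. A search for the pore signature in proteins was not run, as no protein sequences were used here. The alternatives were another pseudocount (0.1), no filter, a mean of at least 5 FPKM, rescaling to equal FPKM sums (TPM) with and without Gm23935, quantile normalization, limma-voom, the replicate block and leaving out each library. Rescaling without Gm23935 and limma-voom at 10 reads were added after the data were seen. The fits were tested on simulated data. Python 3.11.15, pandas 2.3.3 and matplotlib 3.10.9 were used for tables and figures.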

Additional observations from a re-analysis of the deposited data

How the results depend on the processing

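Under the other settings 1 member, Kcnn3, was lower and 0 were higher, with these exceptions. Without a filter 2 were lower (Kcnn3 and Kcns2), and at a mean of at least 5 FPKM, which leaves Kcnn3 out, 0 were lower. With limma-voom at 10 reads, which holds 37 members, 3 were lower and 2 higher. The log2 fold change of Kcnn3 lay between -1.73 and -1.24, with an adjusted p of 5.97e-06 to 0.0110 (limma), and its call held in all 14 alternatives that tested it. The median change of the members was 0.086 at a mean of at least 5 FPKM and 0.080 with TPM, which moved the median of all genes as well, and lay between -0.042 and 0.051 without 1 library. The partner and transport genes called were 0 higher and 2 lower without a filter, 1 and 2 at 5 FPKM, 3 and 1 with TPM, 1 and 2 with TPM without Gm23935, 3 and 7 with the replicate block and 3 and 8 with limma-voom at 10 reads. They were 0 to 1 higher and 1 lower without 1 library. The replicate block changed no call among the members, with Kcnn3 at -1.31 (adjusted p = 0.00295 from limma). With the block the limma adjusted p was smaller than in the main fit for Kcnab1 (0.0607), Kcnk3 (0.0713), Kcnj12 (0.0880) and Kcnk12 (0.115). Signs turned for Kcnh2, at 0.059 with TPM and -0.059 to 0.013 without 1 library, for Kcnk12 at -0.034 to 0.46 and for Kcnk4 at -0.084 to 0.17 without 1 library. The cause was not tested. The planned edgeR fit on recovered reads was not run. Below 1 FPKM, depth limits what could be detected.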

Other observations

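Of 5 non-coding genes with Kcn symbols, 2 were listed at 0 in every library. Kcnq1ot1, the antisense RNA of the imprinted Kcnq1 domain, had 380, 375 and 399 recovered reads in si-NC and 331, 392 and 384 in si-circRtn4, whereas Kcnq1 itself had at most 4 reads in any library. The groups of Kcnq1ot1 overlapped (log2 fold change -0.07, standard error 0.11, adjusted p = 0.754 from limma-voom).

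Cntnap2, the Caspr2 protein that clusters Kv1 channels at the axon, was too low for the test on FPKM. It was at 0.756, 0.846 and 0.955 FPKM in si-NC and at 0.0412, 0.0940 and 0.0537 FPKM in si-circRtn4, without overlap. In limma-voom at 10 reads the log2 change came to -3.73 ± 0.34 (standard error, adjusted p = 4.31e-05), and it was also lower without a filter on FPKM (adjusted p = 0.0138 from limma). Cntnap2 had 117, 125 and 137 recovered reads in si-NC and 6, 15 and 8 in si-circRtn4. It reached 10 reads on average only through the si-NC libraries, where it was high. It was singled out after its values were seen.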
